A study of Mus musculus with 12 samples.

Results

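The 10 genes described here are activity-dependent immediate early genes, namely Fos, Fosb, Junb, Egr1, Egr3, Arc, Npas4, Nr4a1, Nr4a3 and Homer1. They were chosen by symbol, and all 10 were found among the 55335 genes of the matrices. Their levels were measured in single nuclei of mouse cortex at postnatal day 21 (P21), in 6 wild type (WT) and 6 heterozygous (Het) animals on a C57BL/6 background, with 3 males and 3 females of each genotype. Het animals carried 1 copy of the Myt1l S710fsX frameshift allele, and Myt1l encodes a neuronal zinc finger transcription factor. All animals of both genotypes had been injected as newborns with AAV9 carrying the hyPB transposase and an H2b-tdT reporter, and were anesthetized with isoflurane and perfused before dissection. The question was how these genes are distributed over cell types and animals, and whether they differ between Het and WT.

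Immediate early genes are switched on within minutes of synaptic activity, through calcium entry and the factors CREB, SRF and MEF2, without new protein synthesis. Their products are partly transcription factors that switch on late response genes, and partly synaptic proteins. Their RNA is short-lived, so it is used as a trace of recent activity in a neuron.

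Promoter sequences are shown because CREB, one of these factors, binds the cAMP response element, whose core was found in a promoter of each member matched. RefSeq promoters on GRCm38.p6, running from 250 bases before to 50 bases after a start site, were matched by symbol for 7 members. Promoters on the chromosome of Egr1 were left out before matching, so Egr1 was not looked up. Arc and Egr3 had no entry among the promoters kept. The letters searched were TGACG, the core of the cAMP response element, on both strands. They were found at least 1 time in 20.8% of the 32851 promoters kept, called all promoters below, and at least 3 times in 1.03%. Among the members, Nr4a1 and Nr4a3 each held 4 copies, the first Homer1 start held 3, Fos and Npas4 each held 2, and Fosb and Junb each held 1. Another Homer1 start had none. The 5 promoters below are chr12:85473640-85473939 on the plus strand (Fos), chr8:84978699-84978998 on the minus strand (Junb), chr19:4989922-4990221 on the minus strand (Npas4), chr4:48045055-48045354 on the plus strand (Nr4a3) and chr13:93303507-93303806 on the plus strand (Homer1). Each is written 5′ to 3′ on the strand of its gene, and the capitals mark TGACG or its complement CGTCA.
Fos: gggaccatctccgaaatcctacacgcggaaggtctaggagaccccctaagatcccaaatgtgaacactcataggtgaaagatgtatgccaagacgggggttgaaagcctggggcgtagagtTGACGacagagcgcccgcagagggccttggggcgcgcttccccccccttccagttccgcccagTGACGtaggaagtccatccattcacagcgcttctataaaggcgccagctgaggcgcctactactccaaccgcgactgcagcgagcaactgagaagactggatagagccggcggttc
Junb: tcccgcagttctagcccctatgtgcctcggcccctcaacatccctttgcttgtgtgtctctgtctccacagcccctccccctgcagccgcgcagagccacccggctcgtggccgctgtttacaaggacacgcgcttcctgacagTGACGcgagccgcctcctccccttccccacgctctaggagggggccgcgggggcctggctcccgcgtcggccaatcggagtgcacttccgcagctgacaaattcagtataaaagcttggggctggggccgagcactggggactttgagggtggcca
Npas4: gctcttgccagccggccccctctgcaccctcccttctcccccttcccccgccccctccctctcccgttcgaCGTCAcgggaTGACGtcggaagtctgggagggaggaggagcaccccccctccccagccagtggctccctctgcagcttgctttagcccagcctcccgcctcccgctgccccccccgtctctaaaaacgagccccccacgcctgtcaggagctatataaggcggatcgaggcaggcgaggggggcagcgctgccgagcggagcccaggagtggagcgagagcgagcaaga
Nr4a3: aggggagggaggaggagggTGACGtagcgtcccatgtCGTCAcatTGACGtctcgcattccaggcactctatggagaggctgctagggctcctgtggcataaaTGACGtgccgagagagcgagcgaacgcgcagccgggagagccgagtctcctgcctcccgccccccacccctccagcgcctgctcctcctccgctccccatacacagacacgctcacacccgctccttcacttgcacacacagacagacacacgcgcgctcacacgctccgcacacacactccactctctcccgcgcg
Homer1: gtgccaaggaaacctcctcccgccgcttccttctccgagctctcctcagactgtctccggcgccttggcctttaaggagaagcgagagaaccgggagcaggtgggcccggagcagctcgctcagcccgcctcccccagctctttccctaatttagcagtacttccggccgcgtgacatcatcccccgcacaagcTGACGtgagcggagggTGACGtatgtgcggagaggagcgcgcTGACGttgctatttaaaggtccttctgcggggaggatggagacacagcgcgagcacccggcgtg
Other motifs were rarer. TATAAA, searched on the strand of the gene, was present in 1 copy in Fos and in Junb and in 8.32% of all promoters. The AP-1 site TGAGTCA, searched on both strands and containing neither TGACG nor CGTCA, was in none of the members' windows and in 5.2% of all promoters, and the CArG box of SRF was in none of them and in 1.63% of all. These are matches of letters, and the data at hand do not measure binding.

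After the filters 33118 nuclei were retained, between 1551 and 4412 per animal, with a median of 2977.5 to 3399 UMIs (unique molecular identifiers, 1 per captured RNA molecule) per nucleus. Of these, 21063 were excitatory, 8618 inhibitory and 3021 non-neuronal, as named from marker genes. Although the labels name cortex, nuclei with markers of striatal D1 and D2 neurons, dentate gyrus (DG), mitral/tufted cells and neuroblasts were present, and part of the inhibitory class is therefore not cortical interneurons. No barcode was shared between animals. Myt1l itself was between 830.5 and 945.8 CPM (a gene's counts scaled to the same total in every animal) in WT and between 927.9 and 1008 CPM in Het over all nuclei (log2 fold change 0.13 ± 0.049 SE, adjusted p = 0.682, edgeR quasi-likelihood test). Counts are per gene and were not split by allele, so transcripts of the frameshift allele, where present, are included. This level therefore does not check the genotype labels.

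On GRCm38 with the GENCODE vM21 annotation, the genes span chr12:85473890-85477273 (Fos), chr7:19302696-19310051 (Fosb), chr8:84974484-84978718 (Junb), chr18:34859823-34864984 (Egr1), chr14:70077203-70082614 (Egr3), chr15:74669083-74672570 (Arc), chr19:4984355-4990316 (Npas4), chr15:101254269-101274795 (Nr4a1), chr4:48045153-48086447 (Nr4a3) and chr13:93299635-93405129 (Homer1). The members differed widely in abundance. Mean levels in excitatory nuclei ran from 448.7 CPM for Homer1, 28.94 for Nr4a3 and 22.66 for Nr4a1 to 2.886 for Npas4 and 1.566 for Fosb. Each UMI stands for 1 captured molecule, so the values per kilobase that follow are scaled levels and not abundances. Per kilobase of exon, Homer1, a postsynaptic scaffold protein that links metabotropic glutamate receptors to Shank, was the highest in excitatory nuclei at 37.5 CPM. Its gene spans 105 kb, and per kilobase of span the order was closer, with 4.25 for Homer1, 4.06 for Egr1, 3.79 for Egr3 and 2.07 for Arc. Per kilobase of exon the others ran from 6.46 for Nr4a1 and 4.83 for Nr4a3 to 0.698 for Npas4 and 0.251 for Fosb. The scaling changes the order, since Nr4a3 was above Nr4a1 in CPM. Counts are per gene, so the short activity-induced Homer1a form cannot be told apart from the long form.

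Levels were summed over the nuclei of a class in each animal and divided by the class total (CPM). In such a sum, fewer nuclei with a transcript and less RNA per nucleus cannot be told apart. Excitatory nuclei had higher levels than inhibitory nuclei in 12 of 12 animals for Junb, Egr1, Egr3, Arc, Nr4a1, Nr4a3 and Homer1. The mean over animals was 3.56 times higher for Arc, an actin-associated regulator of AMPA receptor endocytosis, and 1.75 times higher for Nr4a1, with the other 5 in between. Fos was higher in excitatory nuclei in 10 animals, Npas4 in 8 and Fosb in 6. Non-neuronal nuclei were below excitatory nuclei in the mean of each member, from 19.8 times for Npas4 (1 UMI over all animals) and 3.94 times for Fos (11 UMIs) to 1.66 times for Arc. Arc, at a mean of 4.37 CPM there (36 UMIs), was above its inhibitory mean of 2.03 CPM. These class differences are descriptions, given without a test.

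Among the AP-1 genes, whose products pair as Fos and Jun family dimers, neuroblast-like nuclei were high and the spread within types was wide. Fos was at 5.85 ± 2.35 CPM (SD, n = 12 animals) in L2/3 IT-like nuclei, 4.45 ± 2.61 in L6 CT-like and 1.25 ± 2.12 in Pvalb-like nuclei. The mean of 13.7 CPM of Fos in astrocyte-like nuclei came from 4 UMIs and an SD of 33.1. Neuroblast-like nuclei held 9.79 ± 6.70 for Fos, 9.085 ± 11.04 for Fosb and 12.6 ± 9.92 for Junb (n = 11 animals with at least 10 such nuclei). Junb was otherwise at 7.51 ± 4.20 in L4/5 IT-like and 9.17 ± 5.68 in striatal D2-like nuclei, and at 0 UMIs in Lamp5-like nuclei.

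Type names give the cortical layer and projection class (IT, intratelencephalic; CT, corticothalamic; NP, near-projecting), and CLA/EP stands for claustrum and endopiriform nucleus. The zinc finger genes Egr1 and Egr3 separated the projection neuron types more clearly. Egr1 was highest in L4/5 IT-like nuclei at 36.2 ± 10.2 CPM, then striatal D2-like at 32.5 ± 19.9 and L6 CT-like at 29.6 ± 8.04, and lowest among excitatory cortical types in L5 NP-like nuclei at 7.74 ± 6.38. Egr3 was at 33.4 ± 19.4 in striatal D2-like, 31.5 ± 21.5 in striatal D1-like and 31.5 ± 8.55 in L2/3 IT-like nuclei. L5 NP-like (3.77 ± 3.70), Pvalb-like (1.11 ± 1.21) and Sst-like nuclei (1.58 ± 1.68) lay at the other end for Egr3.

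The orphan nuclear receptors Nr4a1 and Nr4a3, transcription factors that work without a known physiological ligand, were distributed differently from the Egr genes. Nr4a1 was at 25.7 ± 6.72 to 28.9 ± 27.7 CPM in L2/3 IT-, L4/5 IT-, L5 NP-, L6 CT-, L6b- and CLA/EP Car3-like nuclei, and at 18.7 ± 7.95 in L6 IT-like. Among interneurons it was at 18.9 ± 8.16 in Vip-like and 6.52 ± 3.30 in Pvalb-like nuclei. Nr4a3 was highest in L6 IT-like nuclei at 52.7 ± 14.0 and L5 NP-like at 46.0 ± 10.5, the type in which Egr1, Egr3 and Arc were low.

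Arc was highest in L6 CT-like nuclei at 14.0 ± 5.90 CPM, followed by L4/5 IT-like at 10.03 ± 8.33, with 1.02 ± 1.86 in L5 NP-like nuclei. Homer1 was at 706 ± 231 in L6 CT-like, 670 ± 241 in L4/5 IT-like and 496 ± 132 in L2/3 IT-like nuclei, against 202 ± 32.1 in L5 NP-like. Npas4, a basic helix-loop-helix factor that is induced by depolarization in neurons, was highest in mitral/tufted-like nuclei at 6.66 ± 10.3 (n = 6, 2 UMIs), followed by 6.39 ± 8.50 in striatal D2-, 6.07 ± 8.66 in neuroblast- and 6.00 ± 5.46 in striatal D1-like nuclei. Cortical excitatory types followed, with 4.82 ± 7.85 in L6b-like (7 UMIs) and 3.49 ± 2.41 in L6 CT-like nuclei (49 UMIs). When the 23 types were ordered for each gene, neighbours lay within the larger of their SDs in every case except Homer1 in L5 NP- and Sst-like nuclei, whose means were 47.5 CPM apart. Neighbouring steps of these orders were therefore not resolved in the other cases.

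**Figure D1:**
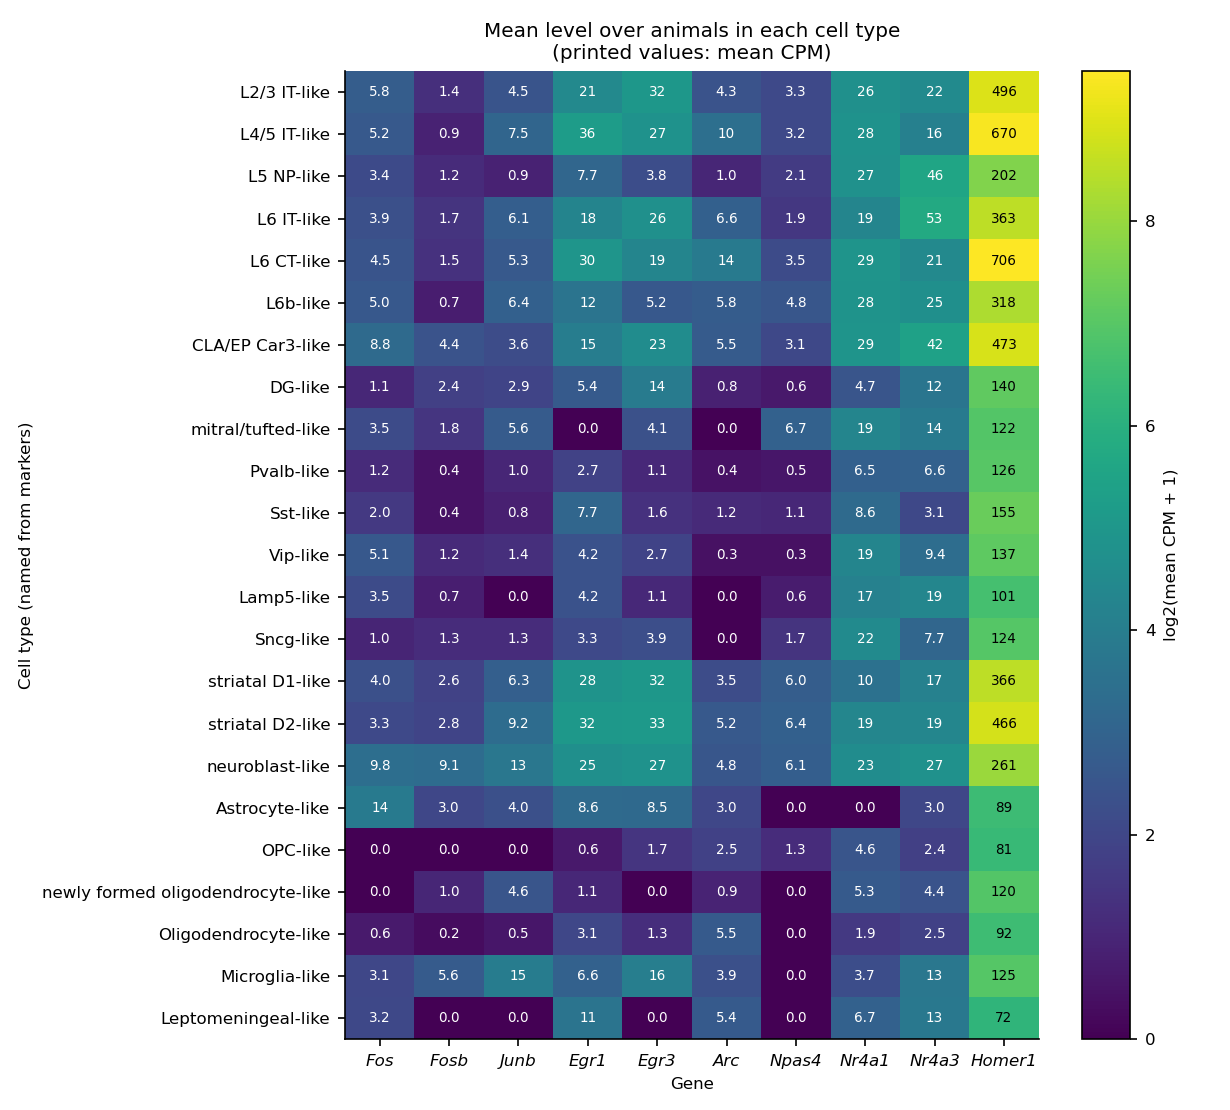
Mean level of each gene (columns) in each cell type (rows) over animals with at least 10 nuclei of that type, printed in CPM and coloured on a log2(CPM + 1) scale. Homer1 reaches 706 CPM in L6 CT-like nuclei, Nr4a3 is highest in L6 IT- and L5 NP-like nuclei, and Npas4 is at 0 in the oligodendrocyte-, microglia- and astrocyte-like rows.

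In oligodendrocyte-like nuclei Arc was at 5.47 ± 5.70 CPM (SD, n = 12, lowest animal 0), against 7.24 ± 2.71 in excitatory nuclei. For comparison, the neuronal gene Myt1l was at 16.6 ± 9.04 CPM against 1034 ± 87.6. The part of free RNA in the Arc level was not tested. Arc gave 25 UMIs there, in 1.67% of 1495 nuclei, compared with 2.26% of excitatory nuclei. Homer1 was found in 20.1% of them and each of the other 8 in at most 0.669%. The median depth was 2480 UMIs in oligodendrocyte-like and 3276 in excitatory nuclei.

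The inhibitory class joins unlike nuclei. The Pvalb-, Sst-, Vip-, Lamp5- and Sncg-like interneuron types made up 36.4 to 66.2% of it per animal, and striatal and neuroblast types 16.8 to 44.7%. Junb, Egr1, Egr3 and Homer1 were higher in the striatal and neuroblast types than in the interneuron types in 12 of 12 animals. Egr3 was at 31.5 ± 13.7 CPM against 1.67 ± 1.23 (SD, n = 12), and Homer1 at 351 ± 85.3 against 134 ± 14.5. Arc was at 4.93 ± 3.59 against 0.582 ± 0.612, and Nr4a3 at 19.9 ± 11.5 against 6.80 ± 3.31. The sum of the class holds these nuclei, so a positive relation of such a gene to their share is partly built in. The relations that follow are therefore descriptions. Levels of Arc, Egr3, Nr4a3 and Homer1 in the whole inhibitory class moved with the share of striatal and neuroblast types over the 12 animals (Pearson r 0.872, 0.702, 0.803 and 0.703, with adjusted permutation p = 0.0003, 0.025, 0.0083 and 0.025 over 10 genes). Spearman rho was 0.935, 0.699, 0.888 and 0.867 (adjusted permutation p = 0.0002, 0.0284, 0.00105 and 0.00173). Egr1 passed by rank alone (rho 0.741, adjusted permutation p = 0.0204; r = 0.61, adjusted permutation p = 0.065). For the 4 genes that passed by both, r without the 2 animals with the most extreme shares was 0.732, 0.799, 0.798 and 0.731. Within genotypes it ran from 0.348 (Egr3 in WT) to 0.966 (Egr3 in Het). Each value of the whole inhibitory class below is a sum over this mixture, and the part of the share in it was not tested.

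Apart from Homer1, each member was detected in a small share of nuclei. A nucleus without a UMI may still hold transcripts, since the shares depend on depth. In excitatory nuclei at least 1 UMI was found in 7.65% for Nr4a3, 7.03% for Nr4a1, 6.59% for Egr1, 6.21% for Egr3, 2.26% for Arc, 2.01% for Junb, 1.47% for Fos, 0.954% for Npas4 and 0.518% for Fosb (Wilson 95% interval 7.30 to 8.02% for Nr4a3 and 0.429 to 0.624% for Fosb, for counting error only). Homer1 was found in 60.8%. In inhibitory nuclei the share was 4.29% for Nr4a1 and 0.569% for Fosb, and 40.1% for Homer1. The inhibitory share of Arc was 0.696% at a median depth of 3200 UMIs, below that of oligodendrocyte-like nuclei. Within the inhibitory class Arc was at 0.582 ± 0.612 CPM (SD, n = 12) in the interneuron types, from 9 UMIs, and at 4.93 ± 3.59 in the striatal and neuroblast types. Npas4 was detected in 0 of 1495 oligodendrocyte-like nuclei, which allows a share of nuclei with a UMI at this depth of up to 0.201%, and sets no limit on nuclei that express it. With every nucleus thinned to 1500 UMIs the excitatory shares fell to 4.03% for Nr4a3, 0.741% for Fos and 40.4% for Homer1.

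Of excitatory nuclei, 26.5% held at least 1 of the 9 members other than Homer1. This share ran from 18.3% in WT male 3 to 29.8% in Het male 2. Among inhibitory nuclei 14.2% did so. The largest number of the 9 found in a nucleus was 6 in the excitatory class, in 4 nuclei, and 8 in the inhibitory class, in 1 nucleus.

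Members were found together more often than their separate shares give. The expected number for a pair was computed within each fine cluster of each animal, so cell type and animal are held fixed, while depth within a cluster is not. For the 36 pairs without Homer1, 2282 joint detections were counted in excitatory nuclei against 1249 expected, a ratio of 1.83, and all 36 pairs were above expectation. A nucleus counts in every pair it holds, here and in the inhibitory class, so the pairs are not separate observations. The ratio was above 1 in each of the 12 animals, from 1.54 in Het female 1 to 2.38 in WT female 1. After thinning to 1500 UMIs it was 1.86, with 35 of the 36 pairs above expectation. Pairs of late response and effector genes, a list chosen for comparison, gave a median ratio of 1.19 over the pairs with at least 5 expected nuclei, where the members gave 1.77. Summed over all pairs of a list, the ratio was 1.14 for these genes and 1.29 for the members with Homer1 included. The lists differ in how often their genes are detected, and the difference between the ratios was not tested.

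The excess was unequal among pairs. Among pairs with at least 5 expected nuclei, Fosb with Nr4a3 gave the highest ratio in the excitatory class, with 37 nuclei against 10.5 expected (3.52), followed by Fos with Nr4a3 (79 against 27.1). Egr3 with Nr4a3 was found in 197 nuclei against 107.5. Homer1, detected in most excitatory nuclei, gave a summed ratio of 1.15 over its 9 pairs. In the inhibitory class the 36 pairs gave 507 against 190.8 (2.66), with 1.80 to 4.56 over animals and the highest value in WT male 2. The WT animals lay between 1.74 and 2.38 in excitatory nuclei and the Het animals between 1.54 and 1.85. These ranges overlap and were not tested against each other.

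**Figure D2:**
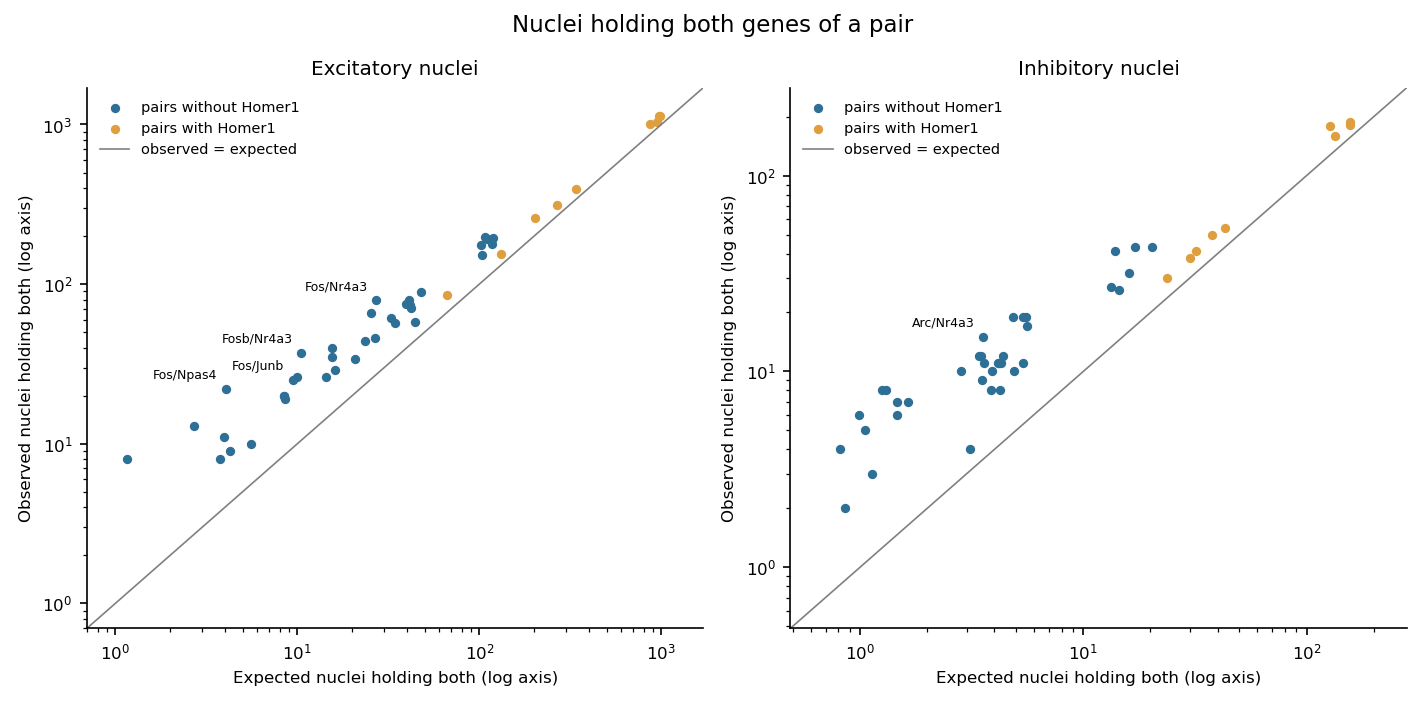
Nuclei holding both genes of a pair (vertical, log axis) against the number expected from their separate shares within each fine cluster of each animal (horizontal, log axis), for excitatory (left) and inhibitory nuclei (right). Each point is 1 pair, the line marks observed equal to expected, and all 36 pairs without Homer1 lie above it in the excitatory class, summing to 2282 against 1249.

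A small cluster had high summed levels of several members. It held 237 excitatory nuclei and was singled out after its values had been seen. Its leading genes were Ier5 (586.3 CPM against 15.84 in the other excitatory nuclei), Irf2bpl and Irs2. The members themselves had been kept out of the genes used for clustering. Among 28 excitatory clusters, leaving out the smallest, of 46 nuclei, it ranked first for Fos, Fosb, Junb, Egr1, Egr3, Arc and Nr4a1.

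The AP-1 gene Junb showed the widest gap, with 85.4 CPM against 5.51, and was found in 24.1% of these nuclei against 1.76% of the others. Arc followed at 65.6 against 6.71 CPM. Egr1 was 3.39 times and Fos 4.18 times as high. Npas4, in contrast, gave 1 UMI, and Homer1 was 0.936 times the level of the other nuclei. Junb was higher there in 10 of 12 animals, Egr1 and Arc in 9, Fos, Egr3, Nr4a1 and Nr4a3 in 7, Fosb in 6, Homer1 in 5 and Npas4 in 1, with 1 to 43 such nuclei per animal. Other immediate early genes outside the 10 were also high, such as Jun (30.5 times) and Egr4 (13.3 times), while Nr4a2 was at 0.587 and Plk2 at 1.01 times. Depth was similar, with a median of 3341 UMIs against 3276. The summed level of the neuronal genes Snap25, Syt1, Rbfox3, Meg3, Celf4 and Nrg3 was lower in the cluster, at 61.3% of that over all neuronal nuclei, while the other excitatory clusters lay between 79.5% and 131.9% except for the DG-like cluster (60.2%). The part of this difference in the levels of the members was not tested. The cluster made up 0.0617% (Het female 2, 1 nucleus) to 2.73% (WT male 2) of the excitatory nuclei of an animal. Without it the summed co-detection ratio was 1.87.

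**Figure D3:**
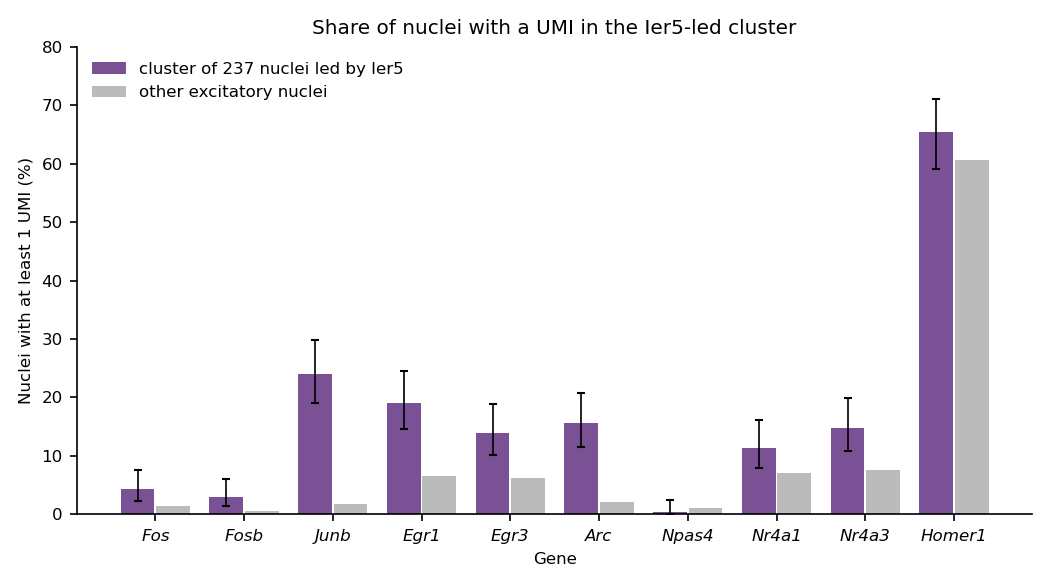
Share of nuclei with at least 1 UMI of each gene (percent) in the cluster of 237 nuclei led by Ier5 and in the other excitatory nuclei; error bars are Wilson 95% intervals of the cluster. Junb reaches 24.1% against 1.76% and Arc 15.6% against 2.10%, whereas Npas4 does not rise above the other nuclei.

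Across the 23 cell types the members followed partly shared and partly separate patterns. Likeness was measured by Pearson r between log2(CPM + 1) means over types, a description without a test, since the types share animals and libraries. Among the members, r ran from 0.315 for Fosb and Nr4a1 to 0.871 for Npas4 and Homer1, and was 0.834 for Egr1 and Egr3.

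Among 17564 candidate genes, the profile of Egr3 was most like those of its paralog Egr4 (0.932), Gm26652 (0.902) and Kcnh3 (0.898). For Egr1 these were Muc3a (0.898), Gm47088 and Gm28578. Npas4 was nearest to Cacna1i (0.876), Homer1 and Tusc3, and Homer1 to Gm16582 (0.901), Cdk5r2 and Neu2. Nr4a1 was nearest to 5530401A14Rik (0.923), Pcsk1, a prohormone convertase, and 1700016P03Rik, and Nr4a3 to Gm44643 (0.881), Neurl1b and Trat1. For Arc they were Gm47088 (0.879), Serpinb8 and Ier5, for Fos 1700016P03Rik (0.825), Teddm2 and Dusp5, for Fosb Syt10 (0.853), Abl2 and Kank3, and for Junb Stac3 (0.809), Egr3 and Gm16701.

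Animals of the same genotype differed more than in most genes for all tested members except Nr4a1. In the fit over excitatory nuclei the biological coefficient of variation (the spread between animals beyond counting error, as edgeR estimates it) was 0.3003 for Arc and 0.269 for Homer1, against a median of 0.0909 over all genes. It was higher than in 99.2% and 98.8% of genes. For Fos, Egr3, Junb and Nr4a3 it ran from 0.231 to 0.243, above 98.0 to 98.3% of genes. Npas4 (0.150) and Egr1 (0.122) were nearer the middle, and Nr4a1, at 0.0864, was below the median gene.

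The highest animal exceeded the lowest 1.73 times for Nr4a1, 2.13 times for Egr1, 2.38 times for Homer1 and 3.94 times for Arc in excitatory nuclei. The wider range of Fosb, 6.36 times, rests on 2 to 20 UMIs per animal. WT male 3 was low in most members at the level of the classes. It lay above the median animal for 0 of 10 members in either class, and among the 3 lowest for 9 of them in excitatory nuclei. Within its striatal and neuroblast types, however, Nr4a1 was at 19.2 CPM (7 UMIs), the highest of the WT animals. WT female 1 was among the 3 lowest for 7. Het male 2 lay above the median for 10 of 10 in excitatory nuclei, and Het female 2 was among the 3 highest for 10 of 10 in inhibitory nuclei, in the animal with the highest striatal and neuroblast share (44.7%). No relation of a member's excitatory level to the median UMI count of an animal passed (lowest adjusted permutation p = 0.607 by Pearson r and 0.29 by Spearman rho, over 10 genes, n = 12).

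For 6 members the levels of the excitatory and inhibitory class moved together over animals. Over the 12 animals, Pearson r between the 2 levels was 0.898 for Homer1, 0.876 for Egr1, 0.832 for Arc, 0.816 for Nr4a1, 0.729 for Egr3 and 0.674 for Nr4a3 (adjusted permutation p = 0.0009, 0.00187, 0.00187, 0.00278, 0.0108 and 0.0215 over 10 relations). Spearman rho was 0.762, 0.797, 0.865, 0.69, 0.678 and 0.601 in the same order, with adjusted permutation p = 0.0167, 0.0148, 0.0055, 0.0358, 0.0358 and 0.07, so that Nr4a3 did not pass by rank. Without the 2 animals farthest from the median r was 0.84, 0.652, 0.791, 0.752, 0.646 and 0.499. Within genotypes it lay between 0.562 (Egr1 in Het) and 0.974 (Egr1 in WT). Fos, Fosb, Junb and Npas4 gave r between 0.13 and 0.422 and did not pass.

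Since the inhibitory class is mixed, the relation was also computed within its parts, a split made after the data had been seen. Against the interneuron types alone, Homer1 gave r = 0.871 (adjusted permutation p = 0.0017; rho 0.832, adjusted permutation p = 0.0139), with 0.853 without the 2 farthest animals, 0.936 within WT and 0.71 within Het. Egr1 gave 0.711 (adjusted permutation p = 0.0396), but not by rank (adjusted permutation p = 0.17). The other 8 members did not pass against interneurons. Of these, Arc, Fosb, Npas4, Junb, Egr3 and Fos had only 9 to 35 UMIs each in the interneuron types over all animals, with the lowest animal at 0. Such counts are too few to decide whether a relation is present. Against the striatal and neuroblast types alone, Arc (0.824) and Nr4a3 (0.818) were the closest (adjusted permutation p = 0.005 and 0.00675), and Nr4a1 (0.715), Egr1 (0.668) and Homer1 (0.666) also passed (adjusted permutation p = 0.0319, 0.0398 and 0.0398). By rank Arc was the only member to pass there (adjusted permutation p = 0.0389).

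**Figure D4:**
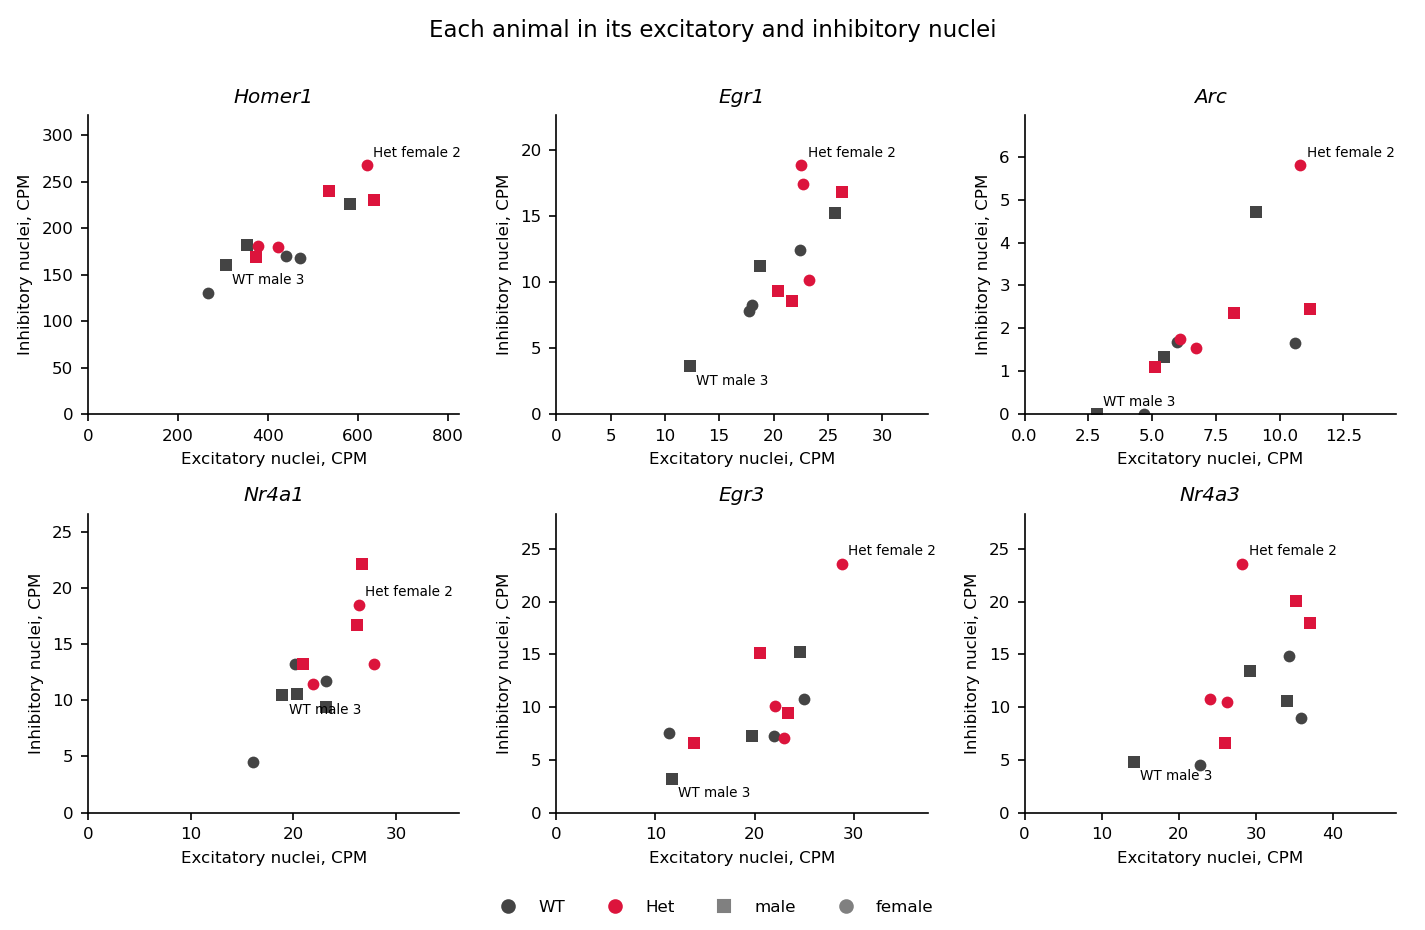
Level of 6 genes in the excitatory (horizontal) and inhibitory nuclei (vertical) of each of the 12 animals, in CPM; dark points are WT, red points Het, squares males and circles females. WT male 3 lies low and Het female 2 high in most panels, and r over animals is 0.898 for Homer1.

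Pairs of members were less regular across animals. Of 45 pairs in excitatory nuclei, 6 passed by Pearson r, led by Egr3 with Homer1 (r = 0.808, adjusted permutation p = 0.0383, n = 12) and Egr1 with Arc (0.791). None passed by Spearman rho (lowest adjusted permutation p = 0.144). Fos with Junb gave 0.774 over all animals, but 0.929 within WT and 0.0303 within Het, and 0.477 without the 2 farthest animals.

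No member was called different between Het and WT. In excitatory nuclei 9 members passed the filter on low counts and 0 were called by edgeR (adjusted p under 0.05 and a log2 fold change beyond 0.2), with 2 at an unadjusted p under 0.05. Over all genes edgeR called 19 of 14034 there (0.135%). DESeq2 gave an adjusted p to 5 of the 10 members and called 0 (84 of 6479 genes). In inhibitory nuclei 5 members, Egr1, Egr3, Nr4a1, Nr4a3 and Homer1, were tested and 0 called by edgeR (26 of 11402 genes, 0.228%), 2 with an unadjusted p under 0.05. DESeq2 gave an adjusted p to 7 members and called 0 (47 of 13235 genes). Over all nuclei 10 were tested and 0 called by edgeR (0 of 16656 genes, 0%), 1 with an unadjusted p under 0.05. DESeq2 gave an adjusted p to 8 members and called 0 (30 of 13183 genes). WT male 3 was the lowest of the 12 animals for 5 members in excitatory nuclei, and WT female 1 for 4.

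For the AP-1 genes in excitatory nuclei the range of the Het animals lay inside that of the WT animals. In excitatory nuclei Fos was at a lowest, median and highest level of 2.17, 5.97 and 7.66 CPM in WT, and 3.41, 4.47 and 6.29 CPM in Het (n = 6 each). The log2 fold change of Fos was -0.21 ± 0.25 (SE, edgeR adjusted p = 0.916). Junb was at 2.71, 6.84 and 10.03 CPM in WT and 5.14, 6.22 and 7.41 in Het (-0.02 ± 0.23). Fosb, at 0.421 to 2.68 CPM in WT and 1.08 to 2.20 in Het, did not pass the filter in this class. Npas4 was at 1.67 to 4.04 CPM in WT and 1.72 to 3.45 in Het, with a log2 fold change of -0.16. In the striatal and neuroblast types of the inhibitory class Junb was at 11.7 ± 3.30 CPM (SD, 66 UMIs in all) in WT and 6.33 ± 3.48 in Het, Fos at 7.09 ± 4.34 and 5.57 ± 3.83, and Fosb at 5.58 ± 4.96 and 4.00 ± 4.23, with overlapping ranges for each. These AP-1 levels are given without a test.

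The zinc finger genes were on average higher in Het, without passing the test. Egr1 was at 12.3, 18.4 and 25.6 CPM in WT and 20.4, 22.6 and 26.3 in Het, so that the groups overlapped. Its log2 fold change was 0.25 ± 0.12 (unadjusted p = 0.049, edgeR adjusted p = 0.641), and 0.14 without WT male 3. Egr3 was at 11.4, 20.9 and 24.9 CPM in WT and 13.9, 22.5 and 28.8 in Het (0.19 ± 0.21). In inhibitory nuclei the log2 fold change was 0.46 ± 0.28 for Egr1 and 0.54 ± 0.38 for Egr3, again with overlapping groups. Without WT male 3 it was 0.26 for Egr1, and without Het female 2 it was 0.22 for Egr3. Within the parts of this class, Egr1 was at 4.82 ± 3.28 CPM (SD) in WT and 4.55 ± 1.74 in Het in the interneuron types. These 2 means differed by less than either SD, so no direction is read from them. In the striatal and neuroblast types Egr1 was at 22.3 ± 7.33 and 34.2 ± 12.2. Egr3 was at 1.19 ± 1.24 in WT and 2.15 ± 1.11 in Het in the interneuron types (29 UMIs in all), and at 29.1 ± 17.5 and 34.0 ± 9.75 in the striatal and neuroblast types. In both parts the means of Egr3 differed by less than either SD, so no direction is read from them.

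Nr4a1 was the member nearest to a difference. In excitatory nuclei WT males were at 20.4, 23.2 and 18.9 CPM, WT females at 16.1, 23.2 and 20.2, Het males at 20.9, 26.7 and 26.2, and Het females at 21.9, 26.4 and 27.8. Of the 6 Het animals 4 lay above every WT animal, and 6 above the WT median. The share of all genes separated to this degree was not counted. The log2 fold change was 0.28 ± 0.098 (unadjusted p = 0.00891, edgeR adjusted p = 0.397). Its adjusted p over the alternatives was between 0.256 and 0.728. In contrast to Nr4a1, Nr4a3 was at 14.2, 31.7 and 35.9 CPM in WT and at a median of 27.3 and a highest level of 37.02 in Het, with overlapping groups (0.05). In inhibitory nuclei its log2 fold change was 0.61 ± 0.33 (edgeR adjusted p = 0.872).

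In inhibitory nuclei Nr4a1 was at 4.53, 10.5 and 13.2 CPM in WT and 11.41, 14.98 and 22.16 in Het. The log2 fold change was 0.63 ± 0.20 (unadjusted p = 0.00392, edgeR adjusted p = 0.367), and 3 Het animals lay above all WT animals. How many of all genes were so separated in this class was not counted. The striatal and neuroblast share was 16.8 to 42.4% in WT and 20.3 to 44.7% in Het. Within the interneuron types Nr4a1 was at 8.82 ± 3.15 CPM (SD) in WT and 12.5 ± 3.34 in Het (log2 fold change 0.42 ± 0.25, edgeR adjusted p = 0.922). Within the striatal and neuroblast types it was at 10.9 ± 5.85 and 22.6 ± 8.00 (1.12 ± 0.32, edgeR adjusted p = 0.929). So the direction was the same in both parts and neither passed. Over the members, unadjusted p was under 0.05 for 3 of 5 in the striatal and neuroblast types (304 of 6235 genes, 4.88%, with 0 called by edgeR). In the interneuron types this held for 0 of 2 members (486 of 8671 genes, 5.6%). The split was made after the data had been seen. Without the filter on low counts edgeR called 2 members in the whole inhibitory class, Nr4a1 (adjusted p = 0.0488) and Homer1 (adjusted p = 0.0376), where 148 of 34865 genes were called. Over the alternatives the adjusted p ran from 0.0488 to 0.929 for Nr4a1 and from 0.0376 to 1 for Homer1.

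The synaptic effectors were uneven between animals. Homer1 in excitatory nuclei was at 582.9, 354.1 and 306.1 CPM in WT males and at 266.5, 441.1 and 470.4 in WT females. Het males were at 374.1, 535.4 and 634.8, and Het females at 421.8, 619.9 and 377.2. The groups overlapped widely, with a log2 fold change of 0.27 ± 0.23 (edgeR adjusted p = 0.849). In inhibitory nuclei Homer1 was at 131, 169 and 226 CPM in WT and 169, 206 and 268 in Het (0.28 ± 0.13, unadjusted p = 0.0434, edgeR adjusted p = 0.76), and within the interneuron types alone the log2 fold change was 0.09 ± 0.083. Within the striatal and neuroblast types Homer1 was at 310.5 ± 86.4 CPM (SD) in WT and 392.3 ± 67.3 in Het, with overlapping ranges. Arc was at 2.84, 5.72 and 10.6 CPM in WT and 5.11, 7.48 and 11.2 in Het excitatory nuclei (0.27 ± 0.28, edgeR adjusted p = 0.887).

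**Figure D5:**
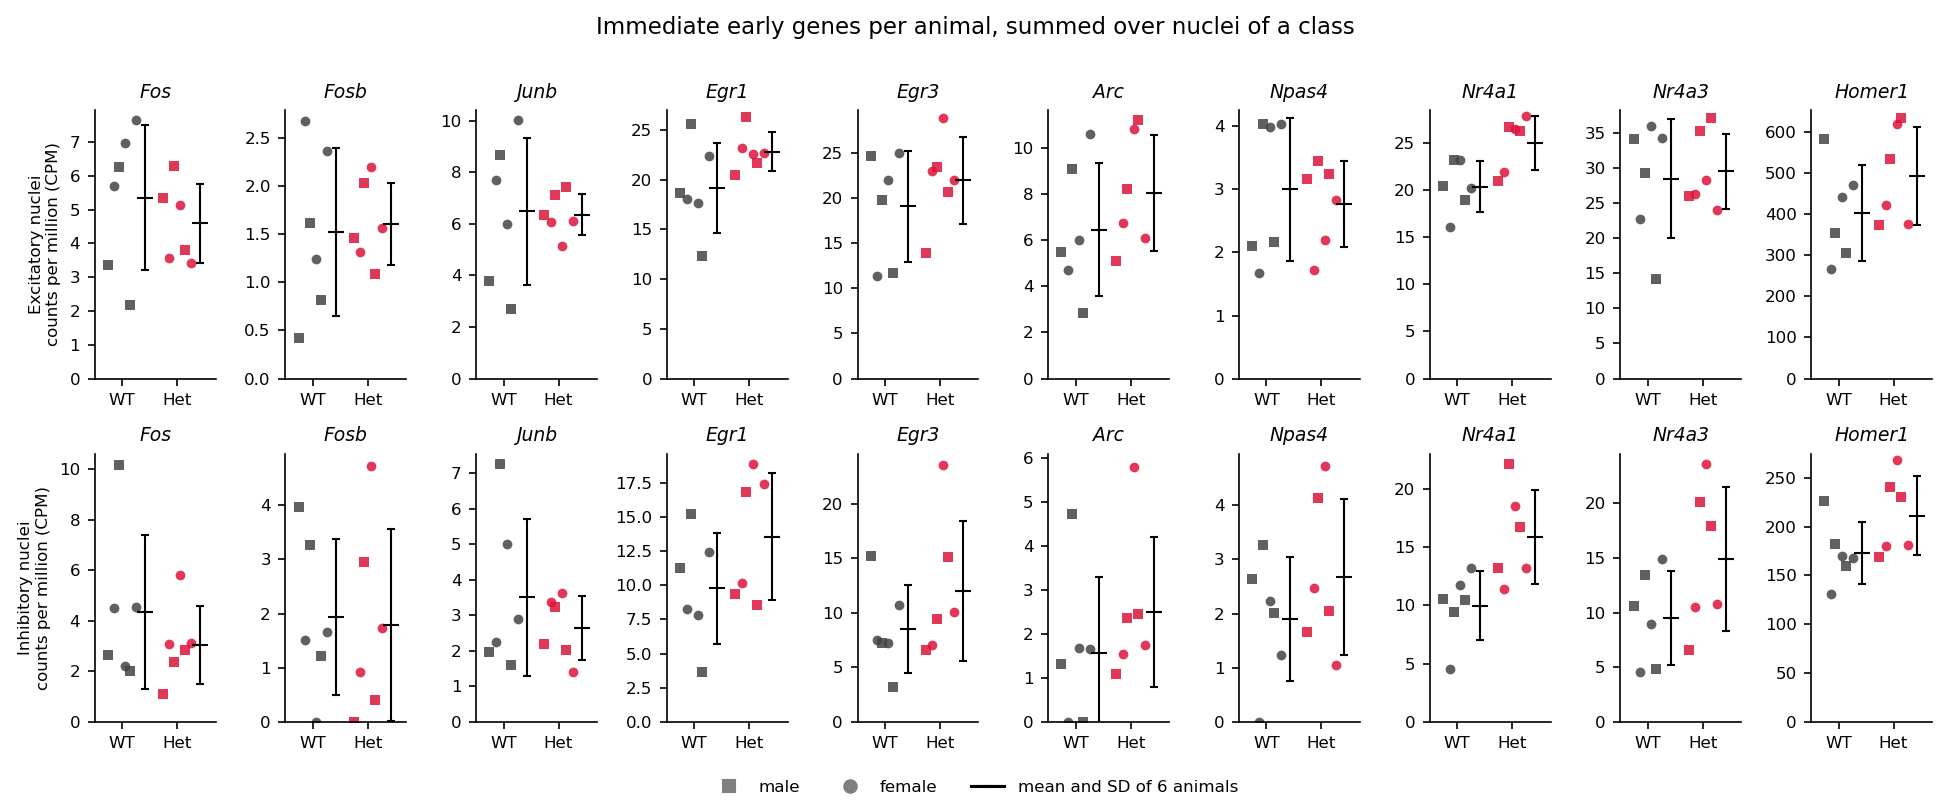
Level of each gene per animal (CPM, axes from 0) in excitatory (top row) and inhibitory nuclei (bottom row), with WT dark, Het red, squares for males, circles for females, and the mean and SD of 6 animals beside each group. WT and Het overlap in every panel, and for Nr4a1 in excitatory nuclei 4 of 6 Het animals lie above all WT animals. The share of all genes with such a separation was not counted.

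The WT averages include the 2 animals that were low in most members. With WT male 3 and WT female 1 left out together, an alternative chosen after seeing the data, 0 members were called, and the excitatory log2 fold change was 0.10 for Egr1, -0.06 for Egr3, -0.01 for Arc, -0.19 for Nr4a3 and 0.08 for Homer1. For Nr4a1 it was 0.20 in excitatory and 0.51 in inhibitory nuclei.

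Within single cell types 33 combinations of member and type could be tested, 17 of them Homer1. The log2 fold change was positive in 30, but types share animals, so these are not separate observations. Without WT male 3 it was positive in 23 of 33, without the filter on low counts in 145 of 205, and with DESeq2 in 137 of 205. edgeR called 0 of the 33 (95 of 74465 gene and type combinations over all genes, 0.128%). It gave 2 at an unadjusted p under 0.05 (0 without WT female 3 or without Het female 2, and 6 without WT male 1). DESeq2 called 0 of the 180 to which it gave an adjusted p (136 of 404603 combinations). Homer1 was nearest in L6b-like nuclei (0.42 ± 0.18, edgeR adjusted p = 0.834) and in striatal D1-like nuclei (0.46 ± 0.20, edgeR adjusted p = 0.641).

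The Het effect did not differ detectably between classes. In the fit of this difference 9 members were tested and edgeR called 0, with 1 at an unadjusted p under 0.05 (4 of 13418 genes, 0.0298%). That gene was Nr4a3, whose Het effect was larger in inhibitory nuclei by 0.54 ± 0.22 (edgeR adjusted p = 0.722). Between the sexes edgeR called 0 of 9 members in excitatory nuclei (10 of 14034 genes, 0.0713%), 0 with an unadjusted p under 0.05. DESeq2 called 0 of 10 (11 of 38944 genes).

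For genotype by sex edgeR called 0 of 10 members (0 of 14908 genes, 0%), 2 with an unadjusted p under 0.05. DESeq2 called 0 of 10 (1 of 38949 genes). Fos was at 3.36, 6.26 and 2.17 CPM in WT males, 5.69, 6.98 and 7.66 in WT females, 5.35, 6.29 and 3.79 in Het males and 3.56, 5.14 and 3.41 in Het females. All WT females lay above all Het females, while the males overlapped. These are groups of 3 animals, and the share of all genes separated in this way was not counted. The Het effect on Fos was lower in females than in males by a log2 difference of -1.25 ± 0.41 (edgeR adjusted p = 0.743), and for Junb the difference was -0.98 ± 0.40 (edgeR adjusted p = 0.781). Members with an unadjusted p under 0.05 numbered 0 without upper limits on UMIs and genes and 1 with DESeq2. They numbered 3 without the filter on low counts and 4 without doublet removal. The median difference of the members was -0.59 in the main fit and -0.14 without upper limits.

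Genes around the members were examined as 4 lists. Over all genes, 7.78% of those tested in excitatory and 6.31% in inhibitory nuclei had an unadjusted p under 0.05, and 0.135% and 0.228% were called, against which the counts of the lists are to be read. Of 32 other immediate early genes 20 were tested in excitatory nuclei, with 12 positive and 0 called by edgeR (1 at an unadjusted p under 0.05), and 10 in inhibitory nuclei, with 6 positive and 0 called (also 1). DESeq2 called 0 of this list in either class. The 2 with the smallest p were Fosl2 (0.58 ± 0.20, edgeR adjusted p = 0.363) and Dusp5 (-0.33) in excitatory nuclei, and Plk2 (0.42, edgeR adjusted p = 0.367) and Fbxo33 (0.14) in inhibitory nuclei.

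Of 27 late response and effector genes 20 were tested in excitatory nuclei and 1 rose in Het, Nptx1, which encodes a secreted pentraxin that clusters AMPA receptors. DESeq2 called it too. It was at 48.9 to 65.18 CPM in WT and 65.19 to 87.7 in Het, so the groups almost met (log2 fold change 0.48 ± 0.080, edgeR adjusted p = 0.0107). The share of all genes without overlap between the groups was not counted. Without WT female 3 the adjusted p was 0.0638, and without both low WT animals 0.0546, while the log2 fold change stayed between 0.43 and 0.52 over all alternatives. The median log2 fold change of the list was 0.076, against -0.0037 over all genes. In inhibitory nuclei 19 were tested, 0 were called by edgeR (5 at an unadjusted p under 0.05) or by DESeq2, and the median was 0.32. The 2 smallest p there were those of Rasgrp1 (0.41, edgeR adjusted p = 0.284) and Penk (0.63, edgeR adjusted p = 0.555), the enkephalin precursor of striatal D2 neurons. The part of the striatal and neuroblast share in these inhibitory values was not tested.

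Of 38 upstream calcium, kinase and CREB/SRF/MEF2 genes 37 were tested in excitatory nuclei with 0 called by edgeR (4 at an unadjusted p under 0.05), the 2 smallest p being those of Mef2d (0.19) and Mef2c (-0.21). In inhibitory nuclei 1 of 34 rose, Camk4, a nuclear calcium and calmodulin dependent kinase that phosphorylates CREB. DESeq2 called it as well, and 0 of this list in excitatory nuclei. Its level was 223 to 275 CPM in WT and 308 to 381 in Het, without overlap (0.41 ± 0.073, edgeR adjusted p = 0.0108). How many of all genes had no overlap was not counted here either. The call was lost within the interneuron types alone (0.05 ± 0.10, edgeR adjusted p = 0.998), within the striatal and neuroblast types alone (0.25 ± 0.19, adjusted p = 0.929), without upper limits on UMIs and genes (0.30, adjusted p = 0.29) and without both low WT animals (0.41, adjusted p = 0.0719). The average level of Camk4 was 6.47 log2 CPM in the interneuron types and 9.83 in the striatal and neuroblast types, as edgeR gives it. In the fit on sums of the whole classes, its Het effect was larger in inhibitory than in excitatory nuclei by 0.47 (edgeR adjusted p = 0.0102). The part of the striatal and neuroblast share in this difference was not tested.

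Of 18 partners of Homer1 and Arc at the synapse, 18 and 17 were tested and 0 were called by edgeR in either class, with 4 at an unadjusted p under 0.05 in each. The 2 with the smallest p were Cacng2, an auxiliary subunit of AMPA receptors (0.28, edgeR adjusted p = 0.101), which DESeq2 called (adjusted p = 0.021), and Shank1 (0.21, adjusted p = 0.261) in excitatory nuclei, and Itpr1 (0.30, adjusted p = 0.284) and Shank2 (0.24, adjusted p = 0.513) in inhibitory nuclei, where DESeq2 called 0.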

How the data were processed

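Nuclei from P21 mouse cortex were profiled with the Scale Biosciences single nucleus RNA assay in 12 separate animals, 3 per genotype and sex, processed on the same plates. The study's methods also speak of prefrontal cortex and of 4 litters. The authors aligned reads to mm10 with ScaleRna and deposited expected counts per gene and nucleus, of which 92.3% are whole numbers. The submitters' processing notes name Seurat 4.3.0 and DESeq2 1.38.3. The deposited expected counts were summed per animal and then rounded, and levels are given as CPM, a gene's counts scaled to the total of the summed class. The 10 genes and the 4 gene lists were chosen with earlier results of these data known. In the lists, called genes and otherwise the 2 genes with the smallest p were named.

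Of 78743 barcodes, 34862 had 800 to 6000 UMIs, 300 to 3000 genes, at most 1% mitochondrial counts and log genes at 0.9 times log UMIs or more. The upper limit on UMIs removed 33604 barcodes. The 5% of nuclei with the highest doublet score (Scrublet in scanpy 1.11.5) were removed, 1744 in all, which left 33118 (14346 WT and 18772 Het) with 5053978 to 13995650 UMIs per animal. Nuclei were clustered on 3000 variable genes, without the 10 genes and the list of other immediate early genes, and 50 components with 20 neighbours (leidenalg 0.10.2). Clusters were named from marker lists, and the thresholds for a name were set after the clusters had been seen. Excitatory clusters without a name held 6249 nuclei and inhibitory ones 1629. These stayed in their class, and 416 mixed nuclei were left out of the classes.

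Sums per animal were tested in R 4.3.3 with edgeR 4.0.16 (quasi-likelihood test, TMM, filterByExpr, Benjamini-Hochberg over all genes tested, two-sided), and a call needed an adjusted p under 0.05 with a log2 fold change beyond 0.2 in either direction. For single types, animals with 10 or more nuclei entered and 3 such animals per genotype were needed, which 22 types met. DESeq2 1.42.0 was the alternative tool, and the scripts were tested on simulated data. Correlations over animals used 100000 permutations, two-sided. Shares carry Wilson 95% intervals, and a count of 0 allows up to 3 counts. Sparse genes limit the precision, since Npas4 had 5 to 34 UMIs per animal in excitatory nuclei and Fosb 2 to 20.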

Additional observations from a re-analysis of the deposited data

Results flagged for a closer look

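Of 40 groups of 6 animals (10 genes, 2 classes and 2 genotypes), 3 held an animal whose gap to its nearest neighbour, over the range of the group, exceeded the critical value of 0.625. Chance flags about 1 in 20 groups. Fos in inhibitory nuclei was at 10.17 CPM in WT male 2, from 28 UMIs, with the next WT animal at 4.551. Arc in the same class was at 4.72 CPM in WT male 2, from 13 UMIs, with the next at 1.675. Among the Het animals Arc was at 5.806 CPM in Het female 2, from 16 UMIs, with the next at 2.447. In WT male 2 the striatal and neuroblast types made up 42.4% of inhibitory nuclei and in Het female 2 44.7%, the 2 highest shares of the 12 animals, and the part of this composition in the 3 values was not tested.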

How the results depend on the processing

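The count of members called was 0 under the alternatives run in all, excitatory and inhibitory nuclei, named types, sexes, genotype by sex and classes, except for 2 in inhibitory nuclei without a filter on low counts. Of the log2 fold changes of members and of the called list genes Nptx1 and Camk4, 197 kept their direction and call under alternatives other than leaving out 1 animal, 13 reversed, 2 passed and 5 were lost. In all nuclei the reversals were Fosb with the replicate block (-0.013), Npas4 with DESeq2 (0.0033), without a filter (0.010) and with the block (0.029), and, without both low WT animals, Fosb (-0.050), Egr3 (-0.043), Arc (-0.020) and Nr4a3 (-0.16). In excitatory nuclei they were Fos (0.017) and Junb (0.065) without upper limits, and, without both low WT animals, Egr3 (-0.059), Arc (-0.012) and Nr4a3 (-0.19). The cause was not tested.

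Leaving out 1 animal gave 0 calls among members. It turned the sign in all nuclei for Fosb (-0.16 to 0.20), Junb (-0.29 to 0.058), Npas4 (-0.14 to 0.095) and Nr4a3 (-0.040 to 0.22), and in excitatory nuclei for Junb (-0.23 to 0.21) and Nr4a3 (-0.11 to 0.12). Nr4a1 stayed between 0.23 and 0.32 in excitatory and between 0.50 and 0.73 in inhibitory nuclei. In excitatory nuclei the range was 0.14 to 0.34 for Egr1, 0.059 to 0.29 for Egr3, -0.41 to -0.021 for Fos, -0.27 to -0.036 for Npas4, 0.076 to 0.53 for Arc and 0.17 to 0.41 for Homer1, with the lowest value without WT male 3 except for Homer1 (WT female 1). In inhibitory nuclei it was 0.26 to 0.67 for Egr1, 0.22 to 0.74 for Egr3, 0.44 to 0.79 for Nr4a3 and 0.20 to 0.37 for Homer1, with the lowest value without Het female 2 except for Egr1 (WT male 3). Of all genes, 4 (without WT female 3) to 46 (without WT female 1) were called in excitatory nuclei, and 9 (without Het male 2) to 50 (without WT male 2) in inhibitory nuclei. Without upper limits 62 and 1 were called, without a filter 171 and 148, and with DESeq2 84 and 47.

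Deviations of same-numbered animals correlated between -0.282 and 0.16. Animals of different numbers were not compared, so these values do not decide whether replicate numbers pair the animals. With the replicate block 0 members were called in all, excitatory and inhibitory nuclei and in named types, and 13 and 14 genes of all genes in excitatory and inhibitory nuclei.

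With expectation computed over a whole class, the co-detection ratio was 2.12 in excitatory and 4.01 in inhibitory nuclei. Thinning lowered the share of nuclei with a UMI of each member, in excitatory nuclei to between 0.233% (Fosb) and 40.4% (Homer1). Fos, Fosb, Junb, Arc and Npas4 rest on at most 81 UMIs per animal in excitatory nuclei; the parts of counting error and of the spread between animals in their errors were not compared.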
